A study of Mus musculus with 7 samples.

Results

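The Nrf2 antioxidant defence was followed in microglia through 10 genes, taken by name from the 55341 gene names of the deposited count table. These were Nfe2l2 and Keap1, which encode Nrf2 and its inhibitor, and Hmox1, Gclm, Gclc, Nqo1, Txnrd1, Prdx1, Srxn1 and Sod2, which encode antioxidant enzymes. Microglia were sorted as CD11b+CD45low cells from the cortex of 5xFAD mice, which express mutant human APP and PS1 from the neuron-specific Thy1 promoter and deposit Aβ. Embryonic neuronal cells from WT mice had been injected into the cortex 4 weeks earlier, and all samples were labelled C57BL/6 and 14 weeks of age. By the methods of the study the mice were female and were injected in both hemispheres. The inside graft group (n = 3 libraries) came from the dissected WT graft and the outside graft group (n = 4 libraries) from small pieces of the same cortex close by, so all 7 libraries came from transgenic, injected hosts, and no uninjected or nontransgenic brain was compared here. The labels do not say which libraries share a mouse or whether mice were pooled, so the spread between libraries may in part be technical. The comparison asks whether microglia within the WT graft differed in this pathway from microglia of the host cortex beside it.

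Nrf2 is a transcription factor that Keap1 holds in the cytoplasm and presents for degradation. Oxidants and electrophiles modify cysteines of Keap1, Nrf2 then accumulates, pairs with small Maf proteins and binds antioxidant response elements near genes for glutathione synthesis, the thioredoxin system, heme breakdown and quinone reduction. Control is therefore largely at the level of the protein, and the messenger RNA of Nfe2l2 does not report the activity of Nrf2. Sod2 is an antioxidant enzyme of mitochondria that is also well known as a target of NF-κB.

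Promoter windows of the members, from 250 bases before to 50 bases after each start site (RefSeq, GRCm38.p6), were searched on both strands for the letters of the antioxidant response element core, TGACNNNGC. Windows were given for 8 of the 10 members, the exceptions being Hmox1 and Gclc. The core was found for 5 of the 8, Nfe2l2, Gclm, Txnrd1, Prdx1 and Srxn1, and for 14% of the 27025 genes with a window. The members were taken by name and not by this core, and Keap1, Nqo1 and Sod2 had windows without it. Its matches are listed below. Capitals mark the core, which is read 5′ to 3′ on the strand where it was found.
Nfe2l2, chr2:75704885-75704913, minus strand: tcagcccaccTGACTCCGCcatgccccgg
Gclm, chr3:122245413-122245441, minus strand: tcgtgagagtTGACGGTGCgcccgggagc
Txnrd1, chr10:82859104-82859132, minus strand: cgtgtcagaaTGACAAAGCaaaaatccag
Prdx1, chr4:116685456-116685484, minus strand: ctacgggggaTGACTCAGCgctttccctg
Srxn1, chr2:152105542-152105570, minus strand: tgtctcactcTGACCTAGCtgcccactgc
In the direction of the gene, the most upstream base of the core lay 240 bases before the start site in Nfe2l2. It lay 134 before the start site in Gclm, 133 before it in Prdx1 and 92 before it in 1 of 3 windows of Txnrd1. In Srxn1 it lay 29 bases into the transcript. The match in Prdx1 overlapped an AP-1 site, TGANTCA, a motif that also occurred in the window of Srxn1 and in 7.81% of the 32851 windows. A match is a description of letters and no binding was measured.

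Between 18644807 and 25882122 reads per library were counted on genes, and 15257 genes passed the filter on low counts. Microglial genes were abundant in all 7 libraries, with Cx3cr1 at 6195 to 6915 CPM (reads per 1000000 reads counted) inside the graft and 6953 to 8274 CPM outside it. Of 8 microglial markers, 3 (Cx3cr1, P2ry12 and Sall1) had all inside below all outside libraries, beside 5.02% of all genes tested. By voomWithQualityWeights 0 of the 8 had an adjusted P below 0.05, while DESeq2 gave P2ry12 an adjusted P of 0.0433. The 8 neutrophil markers summed to between 614 and 11590 CPM inside the graft and to between 0.311 and 265 CPM outside it. Inside graft 1 and 3 also stood apart in monocyte markers, with sums of 672 and 1387 CPM against 85.0 CPM in inside graft 2 and at most 34.9 CPM outside, and in markers of border-associated macrophages, with 118 and 125 CPM against at most 17.8 CPM in the other 5 libraries. Lymphocyte markers summed to at most 2.20 CPM and neuronal markers to at most 11.4 CPM in any library. Of the astrocyte markers, Slc1a3, nearly the whole of their sum, was at 245 to 287 CPM inside and 320 to 347 CPM outside, while Aldh1l1 averaged 6.55 CPM inside and 1.08 CPM outside, and endothelial markers summed to 34.5 to 41.0 CPM against 39.5 to 62.5 CPM. Of 10 genes that dissociation of tissue induces, 2 had all inside above all outside libraries, beside 5.65% of all genes tested. The sums of the 10 overlapped, at 516 to 678 CPM inside and 487 to 648 CPM outside. Atf3 was at 40.5 to 59.5 against 17.3 to 32.3 CPM (adjusted P = 0.0564 by voomWithQualityWeights, 0.00381 by DESeq2). Ier2 was at 21.6 to 24.9 against 8.004 to 20.02 CPM (adjusted P = 0.227 by voomWithQualityWeights). Jun, Junb and Zfp36, the most abundant of the 10, had log2 fold changes of -0.36, -0.13 and -0.19. Their adjusted P by voomWithQualityWeights was 0.237, 0.762 and 0.699, and the other tested genes of this list had positive log2 fold changes. Ptprc, which encodes the CD45 used in the sort, was at 530 to 567 CPM inside and 353 to 477 CPM outside (adjusted P = 0.269 by voomWithQualityWeights). In bulk RNA, fewer cells of a type and less RNA per cell cannot be told apart. The methods of the study list antibodies to Ly6C and Ly6G for the gate they refer to, a gate meant to leave out monocytes and neutrophils, yet Ly6g was at 2.22 to 17.4 CPM inside and at most 0.724 CPM outside. The part of these marker differences in any result was not tested.

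None of the members was called different between inside and outside graft. With limma's voomWithQualityWeights, which weights each library by its quality, 0 of the 9 members that passed the filter had an adjusted P below 0.01 or 0.05, against 0.0197% and 0.492% of all genes tested. With edgeR's quasi-likelihood test, 0 of 9 passed 0.05, as 0.0983% of all genes did, and with DESeq2 0 of 9 passed 0.01, as 1.52% of all genes did. At an unadjusted P below 0.05, voomWithQualityWeights gave Prdx1 and Sod2, both higher inside the graft, where 7.47% of all genes were higher and 4.71% lower, and edgeR gave Prdx1 alone. The median log2 fold change of the 9 members was 0.08, and that of all genes tested was -0.01. For 7 of the 9, the 95% interval of the log2 fold change lay between -1 and 1, as it did for 58.1% of all genes, and the exceptions were Hmox1 and Srxn1. No member had all inside libraries above or all below all outside libraries, which held for 5.65% and 5.02% of genes. CPM were scaled with TMM factors, a correction for differences in RNA composition, and fold changes are inside over outside.

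**Figure D1:**
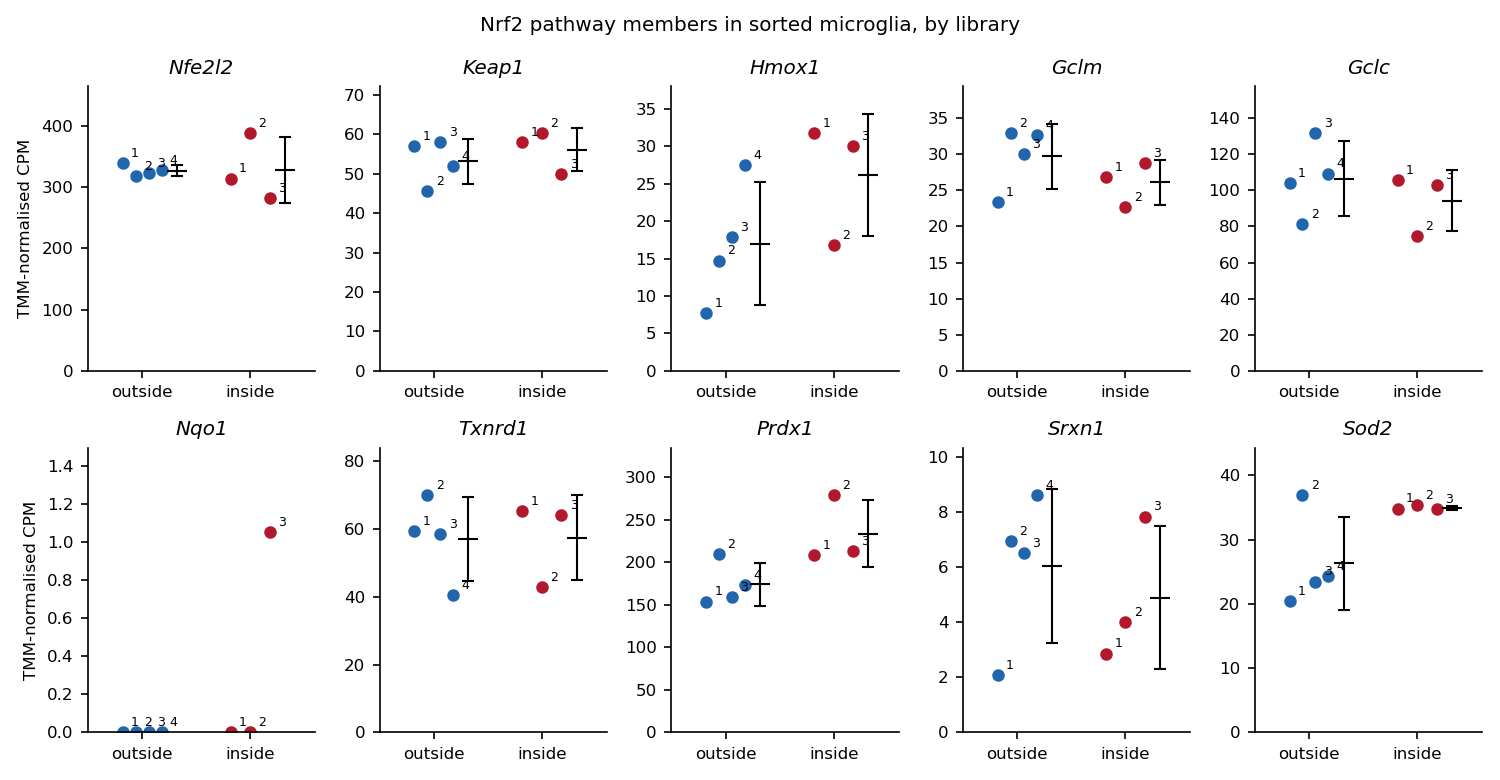
TMM-normalised CPM of the 10 members in each library (numbered points; outside graft in blue, inside graft in red), with the mean and SD of each group as black bars for the 9 tested members. The groups overlap for every member. For Prdx1 and Sod2 they overlap through outside graft 2 alone, which lies within the inside values for Prdx1 and above them for Sod2. For Gclm, with a lower mean inside, they overlap through outside graft 1 alone, which lies within the inside values.

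Nfe2l2 was the most abundant member per length, with nearly equal group means. It read 314, 388 and 283 CPM in inside graft 1 to 3, and 339, 319, 323 and 328 CPM in outside graft 1 to 4. The outside libraries lay within 1.06-fold of each other, and the inside libraries reached above and below all of them. The means were 328 ± 54.1 CPM (SD, n = 3) inside and 327 ± 8.78 CPM (SD, n = 4) outside, with a log2 fold change of 0.00 (95% interval -0.23 to 0.24, adjusted P = 0.994, voomWithQualityWeights). The interval corresponds to changes from 0.854-fold to 1.18-fold.

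Keap1, the adaptor that hands Nrf2 to the Cul3 ubiquitin ligase, read 58.1, 60.2 and 49.8 CPM inside and 56.9, 45.6, 58.0 and 52.0 CPM outside. The highest and the second lowest of the 7 values were both inside the graft, so the groups overlapped throughout. Its log2 fold change was 0.08 (95% interval -0.22 to 0.39, adjusted P = 0.882). The ratio of Nfe2l2 to Keap1 reads within a library, which needs no normalization, was 5.41, 6.45 and 5.67 inside and 5.95, 6.999, 5.56 and 6.31 outside. The mean log2 ratio differed by -0.09 (exact permutation test, two-sided, P = 0.457; adjusted over 3 ratios, 0.686; the smallest P that 35 assignments can give is 0.0286). Of the exon bases of Keap1, 10.9% are shared with Gm16754 on the opposite strand, and the counting did not use strand.

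Hmox1, heme oxygenase 1, which opens the heme ring and releases iron, carbon monoxide and biliverdin, varied most between libraries of the group outside among members above 10 CPM. It read 31.7, 16.8 and 30.1 CPM inside and 7.74, 14.7, 17.9 and 27.5 CPM outside. The 2 highest values were inside graft 1 and 3, but inside graft 2 lay below outside graft 3 and 4. The outside libraries spanned 3.56-fold, and the SDs of 8.17 CPM (n = 3) inside and 8.22 CPM (n = 4) outside were close to the difference of the means, 26.2 and 17.0 CPM. The log2 fold change was 0.43 (95% interval -0.29 to 1.15, adjusted P = 0.680) with voomWithQualityWeights and 0.62 (adjusted P = 0.676) with edgeR. The interval covers a change from 0.817-fold to 2.22-fold. Inside graft 1 and 3, the libraries with the most neutrophil, monocyte and border-associated macrophage markers, were also those with the most Hmox1, and with inside graft 2 as the only inside library the log2 fold change was 0.08 (adjusted P = 0.990). The part of these cells in the value was not tested.

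Gclm and Gclc encode the modifier and the catalytic subunit of glutamate-cysteine ligase, the rate-limiting enzyme of glutathione synthesis. Gclm read 26.9, 22.7 and 28.8 CPM inside and 23.3, 32.9, 30.0 and 32.6 CPM outside. Its groups overlapped only through outside graft 1, which lay within the inside values. Gclc read 105, 74.7 and 103 CPM inside and 104, 81.1, 131 and 109 CPM outside. Inside graft 2 held the lowest value of all 7 libraries for both subunits, and the highest values, outside graft 2 for Gclm and outside graft 3 for Gclc, were outside the graft.

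The log2 fold changes were -0.25 for Gclm (95% interval -0.62 to 0.12, adjusted P = 0.626) and -0.23 for Gclc (-0.63 to 0.17, adjusted P = 0.694), so neither subunit differed beyond the spread of the libraries, and an increase beyond 1.09-fold for Gclm or 1.13-fold for Gclc lay outside the intervals. The ratio of Gclm to Gclc reads was 0.255, 0.304 and 0.280 inside and 0.225, 0.405, 0.228 and 0.299 outside. The mean log2 ratio differed by -0.01 (exact permutation test, P = 1; adjusted, 1), and the outside libraries spread more widely, with an SD of 0.40 against 0.13 inside. Of the exon bases of Gclm, 4.71% are shared with other genes.

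Nqo1, a quinone reductase that is a standard reporter of Nrf2 activity in other tissues, was close to absent. It had 25 reads in inside graft 3, or 1.05 CPM, and 0 reads in each of the other 6 libraries. A count of 0 allows up to 3 reads, or between 0.118 and 0.160 CPM in those 6 libraries, for counting error only. Nqo1 did not pass the filter and was not tested. Inside graft 3, the 1 library with Nqo1 reads, was also the library with the most neutrophil markers, among them Mpo at 113 CPM and Elane at 108 CPM, both at 0 in inside graft 2 and outside the graft. Whether the reads came from these cells was not tested.

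The thioredoxin system removes peroxide through peroxiredoxins, which thioredoxin reduces again at the cost of NADPH. Txnrd1, the cytosolic thioredoxin reductase, read 65.2, 42.9 and 64.0 CPM inside and 59.3, 69.9, 58.3 and 40.4 CPM outside. The highest and the lowest value were both outside the graft, and the means were 57.4 ± 12.6 CPM (SD, n = 3) inside and 57.0 ± 12.3 CPM (SD, n = 4) outside. The log2 fold change was 0.11 (95% interval -0.37 to 0.59, adjusted P = 0.905), and its sign changed with inside graft 2 as the only inside library (-0.37, adjusted P = 0.931).

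Prdx1, the main cytosolic peroxiredoxin and the second most abundant member per length, had the smallest P of the members. It read 208, 279 and 213 CPM inside and 154, 210, 159 and 173 CPM outside. Every inside library lay above 3 of the 4 outside libraries, and outside graft 2 lay just above inside graft 1. The means were 234 ± 39.6 CPM (SD, n = 3) and 174 ± 25.3 CPM (SD, n = 4), with a log2 fold change of 0.42 (95% interval 0.12 to 0.71, unadjusted P = 0.00974, adjusted P = 0.219, voomWithQualityWeights) and of 0.42 (unadjusted P = 0.0167, adjusted P = 0.348, edgeR). Prdx1 therefore did not pass once all genes were taken into account. Inside graft 2, which had the fewest neutrophil markers of the inside libraries, had the highest Prdx1, and as the only inside library it gave a log2 fold change of 0.69 (adjusted P = 0.185). That is 1 library, and the part of other cells in Prdx1 was not tested. Of the 75-base words of Prdx1 transcripts, 4.03% also occur in transcripts of other genes, and the counting left out reads with more than 1 alignment.

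Srxn1, sulfiredoxin, reduces peroxiredoxins that peroxide has overoxidized, and was the least abundant tested member, with 39 to 213 reads per library. It read 2.87, 3.99 and 7.84 CPM inside and 2.08, 6.94, 6.52 and 8.63 CPM outside. The lowest and the highest value were both outside the graft, 4.14-fold apart. The log2 fold change was -0.66 with voomWithQualityWeights (95% interval -1.65 to 0.33, adjusted P = 0.626), which gives outside graft 1 the lowest weight of the 7 libraries, 0.448, and -0.30 with edgeR (adjusted P = 0.919), which weights no library. The interval covers a change from 0.318-fold to 1.25-fold.

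The ratio of Srxn1 to Prdx1 reads was 0.0138, 0.0143 and 0.0367 inside and 0.0135, 0.0330, 0.0410 and 0.0498 outside. Inside graft 1 and 2 and outside graft 1 were low, and the other 4 libraries were high. The mean log2 ratio differed by -0.68 (exact permutation test, P = 0.314; adjusted, 0.686).

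Sod2, the superoxide dismutase of the mitochondrial matrix, read 34.8, 35.4 and 34.8 CPM inside and 20.5, 37.0, 23.5 and 24.3 CPM outside. The inside values were nearly equal, with an SD of 0.340 CPM (n = 3), and lay above outside graft 1, 3 and 4 but below outside graft 2, which held the highest value of all. The log2 fold change was 0.45 (95% interval 0.04 to 0.86, unadjusted P = 0.0338, adjusted P = 0.360) with voomWithQualityWeights and 0.41 (95% interval -0.06 to 0.88, unadjusted P = 0.0804, adjusted P = 0.592) with edgeR. Sod2 therefore passed an unadjusted 0.05 in 1 of these tests and an adjusted threshold in neither. Of the 75-base words of Sod2 transcripts, 16.2% also occur in transcripts of other genes.

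**Figure D2:**
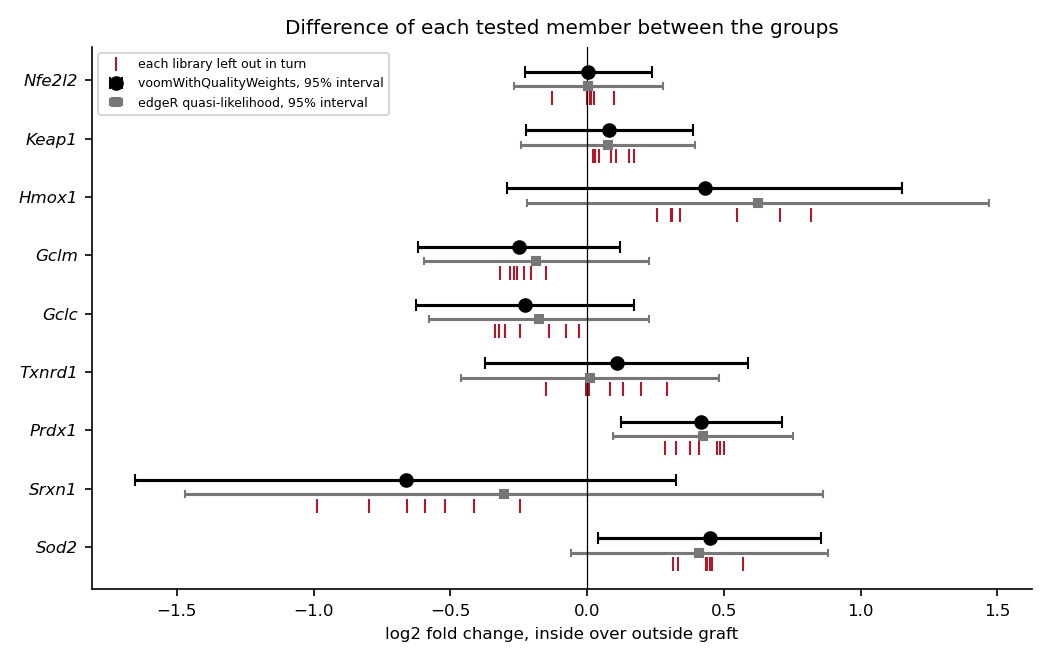
Log2 fold change, inside over outside graft, of the 9 tested members by voomWithQualityWeights (black) and edgeR (grey) with 95% intervals, and by voomWithQualityWeights with each library left out in turn (red ticks). Only the intervals of Prdx1 and Sod2 by voomWithQualityWeights, and of Prdx1 by edgeR, lie above 0, and Srxn1 and Hmox1 have the widest intervals.

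Per kilobase of exon the members spanned a wide range within the same cells. In RPKM (CPM divided by exon length in kilobases) outside the graft the order was Nfe2l2 at 86.2, Prdx1 at 57.2, Gclc at 28.3, Keap1 at 11.3, Hmox1 at 9.70, Txnrd1 at 8.04, Gclm at 4.72, Sod2 at 2.63 and Srxn1 at 2.14. The 4 outside libraries of neighbours in this order did not overlap for Nfe2l2 and Prdx1, Prdx1 and Gclc, Gclc and Keap1, Txnrd1 and Gclm, and Gclm and Sod2. They overlapped for Keap1 and Hmox1, Hmox1 and Txnrd1, and Sod2 and Srxn1, so these pairs were not separated beyond their spread. Nfe2l2 ranked 415th and Prdx1 560th of the 15257 genes tested by mean RPKM, while Srxn1 ranked 10021st. Inside the graft Prdx1 reached 68.5 to 91.8 RPKM and overlapped Nfe2l2, at 74.4 to 102 RPKM, and Hmox1, at 9.61 to 18.1 RPKM, overlapped Keap1 but lay above Txnrd1. These lengths are those of all exons of a gene combined, so a gene with long alternative ends, such as Sod2 at 10008 bases, has a lower RPKM than its main transcript would give.

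**Figure D3:**
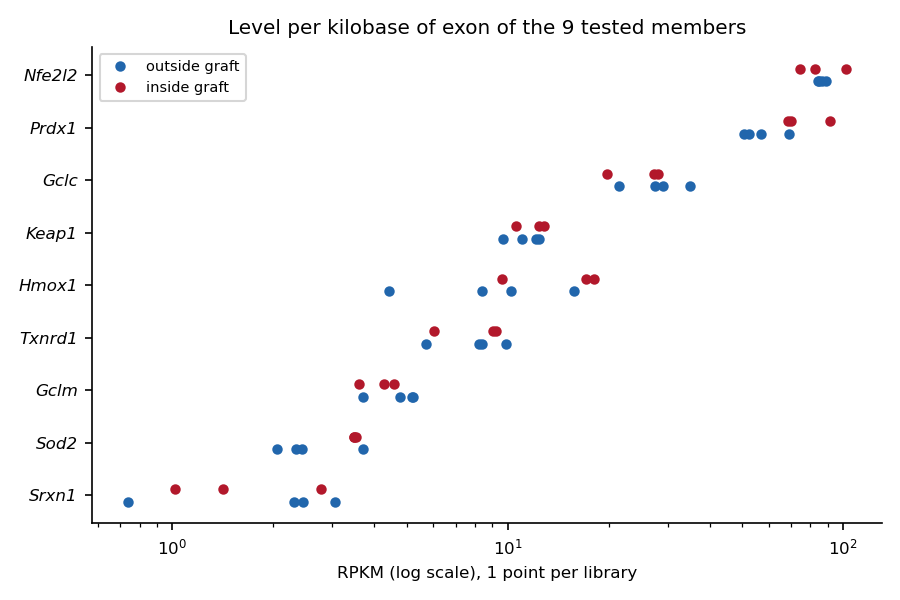
RPKM of the 9 tested members on a log axis, 1 point per library (outside graft blue, inside graft red), in the order of the outside mean. Nfe2l2 and Prdx1 lie above 50 RPKM in every library, and Srxn1 between 0.738 and 3.06 RPKM.

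Among 88 other genes of the pathway, grouped by function, 84 passed the filter, and Aldh2 alone had an adjusted P below 0.05 with voomWithQualityWeights, 0 had one below 0.01, and 0 had one below 0.05 with edgeR. Genes higher inside the graft at 0.05 made up 0.433% of all genes. At an unadjusted P below 0.05, 17 of the 84 were higher and 6 lower by voomWithQualityWeights, beside 7.47% higher and 4.71% lower of all genes. The same shares stand beside the counts of each list that follow. With DESeq2, 4 of the 84 were higher and 1 lower at an adjusted P below 0.01, as 1.52% of all genes were in either direction. The median log2 fold change of the 84 was 0.01. All inside libraries lay above all outside libraries for 11 of the 84 and below them for 4, beside 5.65% and 5.02% of all genes.

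Aldh2, the mitochondrial aldehyde dehydrogenase that clears lipid peroxidation products, read 117, 89.5 and 126 CPM inside and 65.8, 64.3, 52.5 and 62.8 CPM outside. All inside libraries lay above all outside libraries. The 3 inside values had the order of their neutrophil marker sums. The outside values did not, as outside graft 3 had the highest outside sum, 265 CPM, and the lowest Aldh2. How many of all genes have this order was not computed, and the part of these cells was not tested. The log2 fold change was 0.88 (95% interval 0.56 to 1.21, adjusted P = 0.0374, voomWithQualityWeights), or 1.85-fold, with an adjusted P of 0.0682 by edgeR. The call at 0.05 was lost when any of 5 libraries was left out. The adjusted P was then 0.0813 (inside graft 1 omitted), 0.0757 (inside graft 3), 0.0569 (outside graft 1), 0.222 (outside graft 3) or 0.119 (outside graft 4). Over all 7 omissions the log2 fold change lay between 0.78 and 1.02. Inside graft 2 alone gave 0.56 (adjusted P = 0.428).

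Of the 15 other regulators of Nrf2, which include its Maf partners, its competitor Bach1 and the Cul3 ligase, 0 had an unadjusted P below 0.05, and 5 had a positive log2 fold change. The most abundant were Sqstm1, which encodes p62, a competitor for Keap1, with a log2 fold change of -0.20 (adjusted P = 0.580), and Mafg, a small Maf, with -0.21 (adjusted P = 0.566). Both had 1 or more inside libraries within the outside range.

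Of the 22 tested glutathione enzymes and transporters, 6 were higher and 2 lower at an unadjusted P below 0.05, and 0 had an adjusted P below 0.05 by voomWithQualityWeights or edgeR. DESeq2 gave adjusted P values of 0.00376 for Gsr and 0.00120 for Gpx3, below 0.01, and of 0.0231 for Gsto1 and 0.0245 for Mgst1. The most abundant, Slc3a2, a subunit of the cystine carrier, had a log2 fold change of -0.17 (adjusted P = 0.462), and Gpx1, the cytosolic glutathione peroxidase, had 0.29 (adjusted P = 0.370). Gsr, glutathione reductase, was looked at after its values were seen, because its inside values split, at 75.5 CPM for library 1, 30.0 CPM for library 2 and 97.9 CPM for library 3, with 19.4, 27.4, 26.6 and 33.4 CPM in the outside group. Its log2 fold change was 1.10 (adjusted P = 0.189 by voomWithQualityWeights) and 0.18 with inside graft 2 alone. Its 3 inside values had the same order as the neutrophil marker sums. In the outside group, Gsr was highest in outside graft 4 and the neutrophil marker sum in outside graft 3. The part of those cells was not tested. Mgst1, a microsomal glutathione transferase also chosen after its values were seen, showed the same order inside, with 13.5, 0.976 and 19.2 CPM. Outside it was at most 0.724 CPM, in outside graft 3 (adjusted P = 0.371 by voomWithQualityWeights).

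Of the 17 other genes of the thioredoxin system, 5 were higher and 3 lower at an unadjusted P below 0.05, and 0 had an adjusted P below 0.05 by voomWithQualityWeights or edgeR, while DESeq2 gave Prdx6 0.0381. The 5 were Txn1, thioredoxin, the peroxiredoxins Prdx4, Prdx5 and Prdx6, and Msra, with log2 fold changes between 0.47 (Msra) and 0.76 (Prdx6) and adjusted P values from 0.116 (Prdx6) to 0.342 (Msra) by voomWithQualityWeights. The peroxiredoxins Prdx2 and Prdx3 had log2 fold changes of -0.08 and -0.17 (adjusted P = 0.912 and 0.734). The most abundant genes of the list, Txnip, which binds and inhibits thioredoxin, and Sesn1, a sestrin, were among the 3 with lower values inside. Txnip read 426, 301 and 359 CPM inside and 435, 426, 524 and 501 CPM outside, with a log2 fold change of -0.43 (adjusted P = 0.168), and Sesn1 had -0.34 (adjusted P = 0.241). In both, every inside library lay below every outside library. For Txnip this was a near tie, with 425.5 CPM in inside graft 1 and 425.9 CPM in outside graft 2.

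Among the other superoxide and peroxide enzymes, Cat, catalase, had a log2 fold change of 0.06 (95% interval -0.17 to 0.29, adjusted P = 0.887) and Ccs, the copper chaperone of Sod1, had -0.12 (adjusted P = 0.841). Of the 3 tested, 0 had an unadjusted P below 0.05.

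Among 11 tested genes of NADPH supply, which powers both the glutathione and the thioredoxin system, 2 were higher and 1 lower at an unadjusted P below 0.05, and 0 had an adjusted P below 0.05 by voomWithQualityWeights or edgeR. DESeq2 gave adjusted P values of 0.00126 for G6pdx, 0.00121 for Idh2 and 0.0358 for Tkt. The most abundant were Taldo1, with a log2 fold change of 0.16 (adjusted P = 0.580), and Idh2, the mitochondrial NADP-dependent isocitrate dehydrogenase. Idh2 read 168, 142 and 141 CPM inside and 196, 221, 231 and 218 CPM outside, so that all inside libraries lay below all outside libraries, with a log2 fold change of -0.55 (95% interval -0.78 to -0.32, adjusted P = 0.0521). G6pdx, the entry enzyme of the pentose phosphate pathway, named after its values were seen, read 120, 108 and 107 CPM inside and 77.9, 69.2, 78.3 and 84.1 CPM outside, without overlap (log2 fold change 0.52, adjusted P = 0.0754).

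Of the 16 tested genes of heme breakdown and detoxification, Aldh2 included, 4 were higher and 0 lower at an unadjusted P below 0.05. The most abundant, the aldo-keto reductases Akr1a1 and Akr1b10, had log2 fold changes of 0.24 (adjusted P = 0.534) and -0.25 (adjusted P = 0.484). Hmox2, the constitutive heme oxygenase, had 0.00 (adjusted P = 0.998) beside the 0.43 of Hmox1, and the biliverdin reductases Blvra and Blvrb had 0.00 and -0.01 (adjusted P = 0.998 and 0.991).

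**Figure D4:**
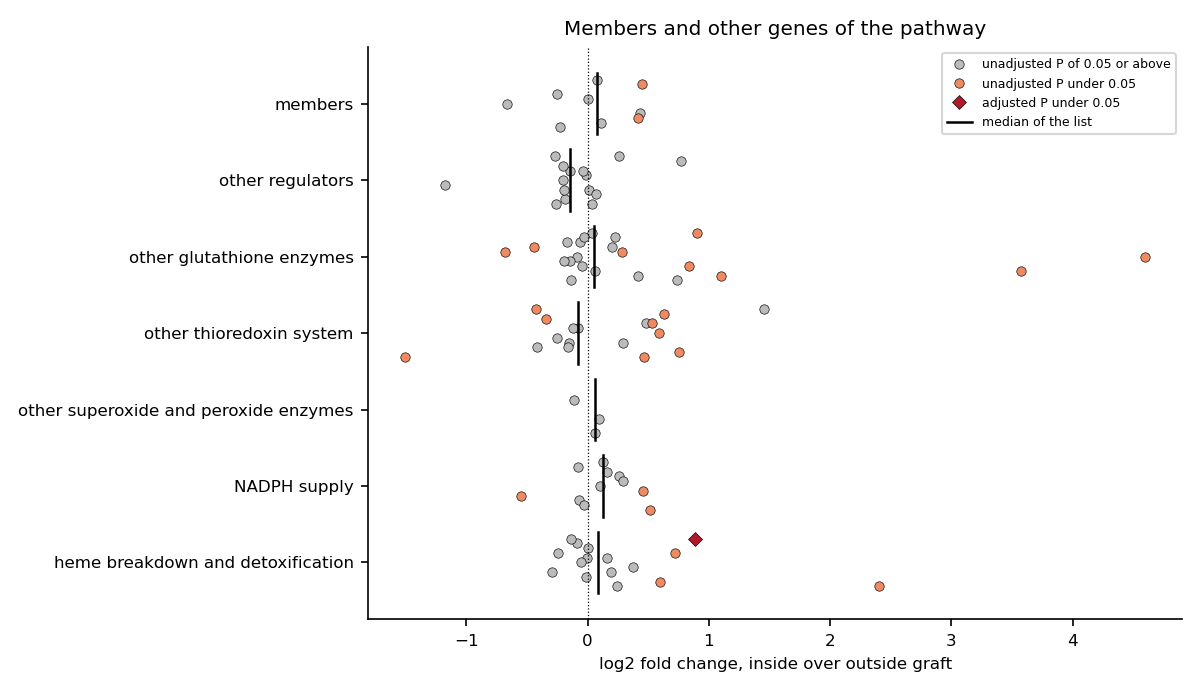
Log2 fold change, inside over outside graft, of the 9 tested members and of 84 other genes in 6 lists, coloured by P from voomWithQualityWeights, with the median of each list as a vertical line. The medians lie between -0.15 and 0.13, and the red diamond is Aldh2.

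**Figure D5:**
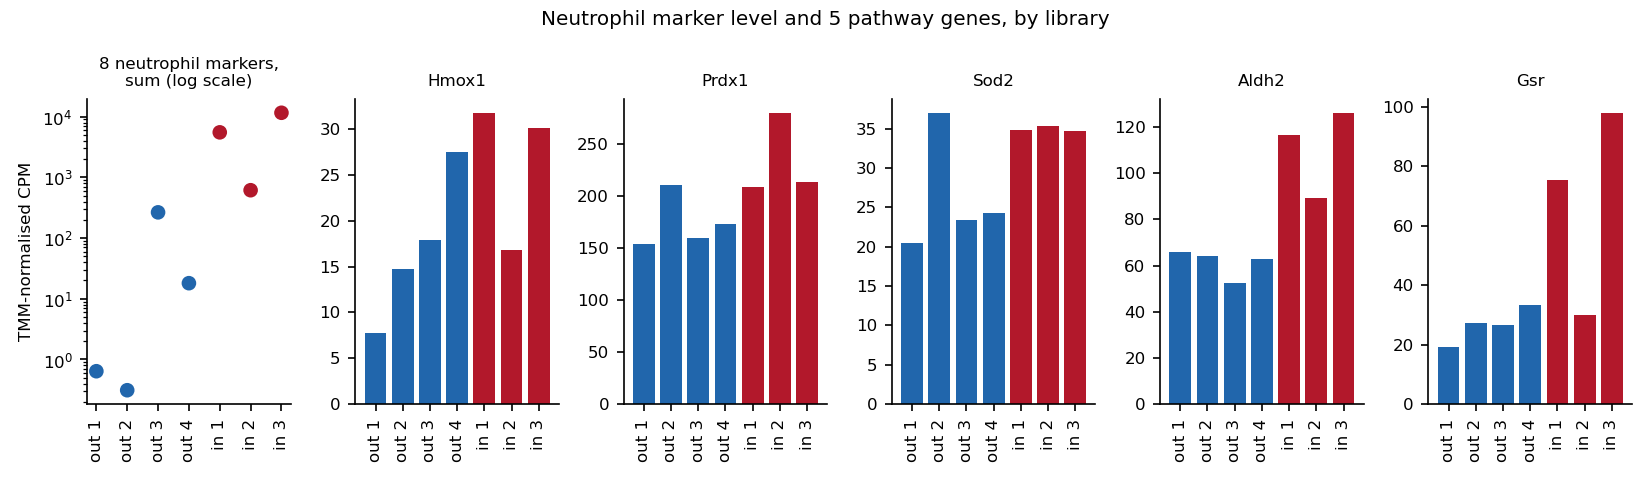
Summed CPM of 8 neutrophil markers (points, log axis) and CPM of Hmox1, Prdx1, Sod2, Aldh2 and Gsr (bars) in each library (out 1 to 4, outside graft in blue; in 1 to 3, inside graft in red). Gsr, Hmox1 and Aldh2 have their lowest inside value in inside graft 2, the inside library with the fewest neutrophil markers, and Prdx1 its highest.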

How the data were processed

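Microglia of 7 samples were profiled by bulk RNA-seq after cDNA amplification. Per the submitters' processing notes and the file header, the authors demultiplexed with bcl2fastq 2.18, aligned single reads with STAR 2.7.2a to GRCm38.p6 with GENCODE M21, and deposited raw counts, 1 row per gene symbol, made with featureCounts 1.6.2. Strand was not used and reads with several alignments were left out. The reads were amplified and carry no molecular identifiers, so floors cover counting error only.

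Groups and replicate numbers came from the labels. All 9 pairs of libraries within a group differed by more than counting noise (chi-square per degree of freedom 16.7 or more). From the counts, genes kept by filterByExpr were normalised with TMM and tested in R 4.3.3 with limma 3.58.1 (voomWithQualityWeights, lmFit, eBayes; Benjamini-Hochberg over 15257 genes; threshold 0.01, with 0.05 beside it), with edgeR 4.0.16 (quasi-likelihood, robust=FALSE) beside it and DESeq2 1.42.0 as an alternative. Scripts were tested on simulated data. RPKM used the deposited exon lengths. Ratios of counts were compared by an exact permutation test.

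The members and lists were chosen with earlier results of these data known. The rule named all members, pathway genes with an adjusted P below 0.05 by voomWithQualityWeights and the 2 most abundant of each list. As stated, Gsr, Mgst1 and G6pdx were chosen after their values were seen. The other pathway genes named, such as Txn1, Prdx2 to Prdx6, Msra, Gpx3, Gsto1, Tkt, Hmox2, Blvra and Blvrb, also fell outside this rule. Alternatives were other tests, normalizations, filters, the threshold, a replicate block and each library left out. Inside graft 2 as the only inside library (voom without quality weights, with its spread assumed to be like that of the others) was added after seeing the data.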

Additional observations from a re-analysis of the deposited data

Results flagged for a closer look

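Of 25 values checked within the 4 outside libraries, 1 stood apart from the other 3 by more than the 95% limit of Dixon's test, and chance alone would mark about 1 in 20. Cat read 89.3 CPM in outside graft 1 and between 109 and 110 CPM in the other outside libraries.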

How the results depend on the processing

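The count of members with an adjusted P below 0.01 was 0 under all 17 alternatives, and it was 0 at a threshold of 0.05 too. The median log2 fold change of the members ran from 0.01 to 0.10 over the libraries left out. The count of pathway genes called at 0.01 was 0 in the reported test, 1 at a threshold of 0.05, 1 with a minimum of 10 counts in every library, 5 with DESeq2 (Gsr, Gpx3, G6pdx and Aldh2 higher, Idh2 lower), and between 0 and 2 with a library left out, the 2 being Gsr and Aldh2 without inside graft 2. All genes called at 0.01 numbered 3 in the reported test, 0 with edgeR and 232 with DESeq2. They numbered 48 of 12066 with the minimum of 10 counts and 33 of 16041 without inside graft 2. At the threshold of 0.05 the reported test called 75 of all genes. Members whose groups did not overlap numbered 1 (Prdx1) with DESeq2 size factors and between 0 and 2 with a library left out. The share of all genes without overlap was not computed under these settings. With a library left out, groups of any gene separate more easily, so these counts cannot be read as a result about the members. The log2 fold change of Nfe2l2 changed sign to -0.00823 without quality weights, -0.00216 with upper-quartile factors, -0.0373 with library size alone and -0.00769 without a filter, and ran from -0.13 to 0.10 with a library left out. Txnrd1 changed sign to -0.23 under the replicate block and to -0.37 with inside graft 2 alone, and ran from -0.15 to 0.29 with a library left out. Inside graft 2 alone also turned Sqstm1 to 0.0322 and Ccs to 0.0496. The difference in the log2 ratio of Gclm to Gclc was 0.0213 under the replicate block and ran from -0.12 to 0.17 with a library left out, and those of Nfe2l2 to Keap1 and Srxn1 to Prdx1 ran from -0.16 to -0.03 and from -1.14 to -0.43. The cause of these changes was not tested.

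Libraries with the same number correlated at -0.06, 0.10 and 0.09 in their deviations from the group means. Inside and outside libraries with different numbers correlated at -0.16 to 0.07. Whether the numbers mark paired samples cannot be told from these values. With the number as a block and without outside graft 4, 0 members and 3 pathway genes (Aldh2, Mgst1 and Idh2) passed 0.05, as did 265 of all 14900 genes tested. The same 6 libraries without the block gave 0 pathway genes and 1 gene in all, and all 7 libraries without it gave 1 pathway gene.

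With 3 and 4 libraries, the 95% intervals of Hmox1 and Srxn1 leave changes of more than 2-fold possible. Counts were low for Nqo1, at 0 in 6 libraries, and for Srxn1, at 39 reads in the smallest library.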
